A study of Mus musculus with 13 samples.

Results

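The matrix proteases and their inhibitors were examined as targets of ESR1 (estrogen receptor alpha) binding: 49 of the 21938 protein-coding genes of GENCODE vM21, chosen by symbol. They comprised 18 Adamts genes, 5 Adamtsl genes, 22 Mmp genes and the 4 Timp genes. A peak belonged to a gene when its summit lay in the gene body or within 10 kb of it, so the windows of close neighbours share peaks. The receptor was immunoprecipitated with its bound DNA, which was then sequenced (ChIP-Seq), from primary skeletal muscle fibroblasts from the lower abdominal muscle of Aromhum mice. All cultures, controls included, came from this genotype, in which a transgene with human aromatase coding exons and promoters supplies the enzyme that makes estradiol (E2). The 4 groups, with 3 libraries each, received vehicle (ethanol and DMSO), E2 at 10 nM, fulvestrant at 100 nM, or both. Fulvestrant, an ESR1 antagonist that also lowers receptor amount, or DMSO was given first, and cells were harvested 1 hour after E2 or ethanol. The paper reports ESR1 and PDGFRA protein in all fibroblasts isolated by its protocol. The cells had been passaged, and peak lists hold no expression values, so their identity was not checked against markers here.

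The extracellular matrix is built and remodelled by zinc metalloproteases. MMPs cleave collagens, gelatin and other matrix proteins, ADAMTS enzymes cut proteoglycans or trim procollagens, ADAMTS-like proteins share the ancillary domains but lack the catalytic one, and TIMPs block the active sites. In fibroblasts these enzymes and inhibitors take part in the deposition and clearance of collagen. ESR1 binds DNA directly at estrogen response elements (EREs), palindromes of GGTCA half-sites, and through partners such as AP-1.

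Of the 49 genes, 46 had a peak in at least 1 library and 27 had one in all 12. The genes without a peak in any library were Mmp7 (matrilysin), Mmp10 (stromelysin 2) and Mmp13 (collagenase 3), all in the Mmp cluster of chromosome 9. A list held between 175 and 341 peaks in the members' windows, or 0.253% to 0.531% of its peaks, while the windows cover 0.187% of the genome. The genome share counts all sequence, not gene windows alone. The median density of members with a peak was 0.476 peaks per library and 10 kb. It lay between Mmp12 and Adamts13, at percentiles of 56.2 and 58.2 among genes with a peak, and 11 members reached the 90th percentile. Lists held between 34293 and 104571 peaks. Among them, E2 replicate 1 and fulvestrant replicate 2 stood apart. Their depth relative to the median library was 39.1% and 75.8%, against 92.0% to 106% in the other 10 libraries, and 59.4% and 27.9% of their peaks were repeat-masked, against 5.57% to 7.79%. The main results that rest on either are given with and without it, except for counts scaled to list length. Those were computed over all 12 libraries, with E2 replicate 1 holding the longest list (104571 peaks). In E2 replicate 1, 84 of the 135 regions present in at least 6 libraries (62.2%) lacked a peak.

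Merging overlapping peaks over the 12 lists gave 749 regions in the members' windows, of 228284 in all. Of the 749, 31 were found in all 12 libraries and 415 in a single one. An ERE with at most 1 mismatch lay within 100 bp of the strongest summit in 14 of the 749 regions (1.87%, Wilson 95% interval 1.12% to 3.11%) and in 1.35% of all merged regions. Among regions present in at least 6 libraries it was found in 5 of 135 (3.7%) and in 3.35% of all 29321. The AP-1 motif TGANTCA was found in 58 of the 749 (7.74%) and in 5.92% of all regions. Both strands were searched for both motifs, and the letters of the ERE were GGTCANNNTGACC.

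The 5 member regions with an ERE and a peak in at least 6 libraries are shown, whatever their response to E2. Over all 12 libraries only the Adamts16 region was stronger with E2 at a raw level (exact permutation p = 0.0433). E2 replicate 1 had no peak in any of the 5. Without it 4 of them were stronger, where 14% of all regions were. Capitals mark the ERE, and each is printed on the strand of its gene.
Adamts2, chr11:50696284-50696376, plus strand: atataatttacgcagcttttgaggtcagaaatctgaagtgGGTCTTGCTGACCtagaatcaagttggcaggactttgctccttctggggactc
Adamtsl1, chr4:86217831-86217923, plus strand: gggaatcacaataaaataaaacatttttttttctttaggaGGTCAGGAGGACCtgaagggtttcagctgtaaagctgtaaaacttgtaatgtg
Adamts16, chr13:70789063-70789155, minus strand: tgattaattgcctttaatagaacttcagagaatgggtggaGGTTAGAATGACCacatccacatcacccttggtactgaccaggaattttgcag
Adamts12, chr15:11211286-11211378, plus strand: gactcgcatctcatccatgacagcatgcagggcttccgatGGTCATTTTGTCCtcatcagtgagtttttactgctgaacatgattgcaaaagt
Timp2, chr11:118302677-118302705, minus strand: agatcagcGGTCATTATGACCctgttgat

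Coordinates are those of mm10, the build of the lists. Counted from 1 at the 5′ end of the capitals, the site in Adamts2 departs from the palindrome at A5T, that in Adamtsl1 at T9G, that in Adamts16 at C4T and that in Adamts12 at A11T. The Timp2 site has no mismatch. Locations were read at the summits of the regions, and the centres of the EREs lay 27 to 80 bp to either side. The first 4 summits lie in introns, between 52628 and 163875 bp from the nearest start site of their gene. The Timp2 summit lies in an untranslated exon.

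Adamts2 encodes a procollagen N-proteinase, which trims the amino-terminal propeptides of fibrillar collagens. Its ERE region spans chr11:50695133-50696975, with its summit 94211 bp from the start site. Ordered by the p-value of the peak, where 1 is the strongest of a list, it stood at rank 2598, 4359 and 3850 with vehicle and at 158 and 225 in E2 replicates 2 and 3. With E2 plus fulvestrant it stood at 77, 160 and 130, and with fulvestrant alone at 832, 32077 and 1102. E2 replicate 1 had no peak there.

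The number of fragments piled up at a summit can be solved from the fold and the p-value of the peak. At the Adamts2 region it was 50, 37 and 34 fragments with vehicle, 170 and 146 in E2 replicates 2 and 3, 125, 136 and 159 under E2 plus fulvestrant, and 80, 26 and 59 with fulvestrant. Apart from E2 replicate 1, every library given E2 lay above every library not given it, and the 2 E2 libraries with a peak overlapped in rank with the 3 given fulvestrant as well. Over all 12 libraries the region stood 2.95 higher on the log2 rank scale with E2 (two-sided exact permutation test of 6 against 6, p = 0.123, adjusted p = 0.666). Without E2 replicate 1 the shift was 4.54 (exact p = 0.00216), and without fulvestrant replicate 2 as well it was 3.88 (exact p = 0.00794).

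**Figure D1:**
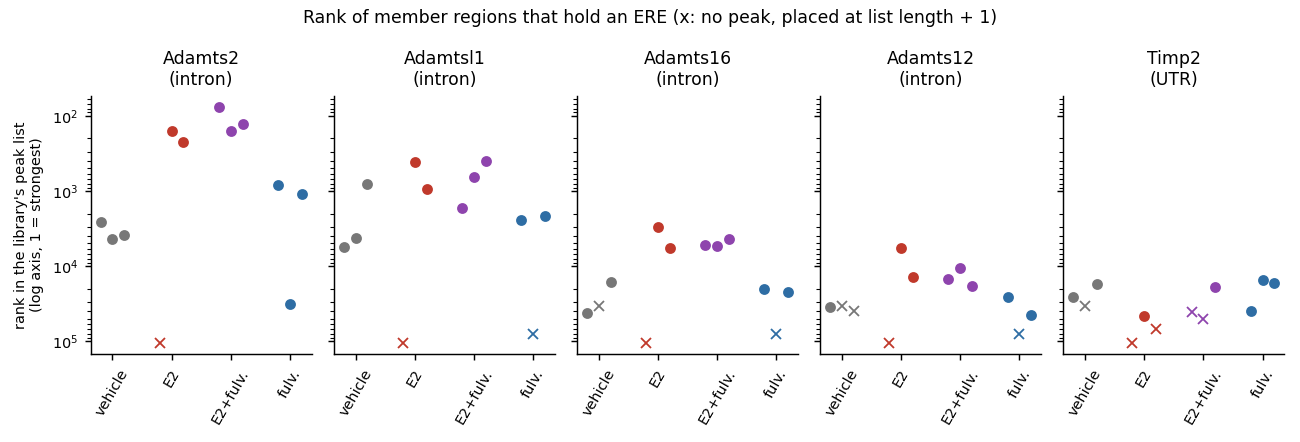
Rank of the 5 member regions with an ERE in each library (vertical log axis, 1 is the strongest peak of a list, crosses mark libraries without a peak, placed at list length plus 1), by treatment. In Adamts2, ranks were 77 to 225 in the 5 libraries given E2 that had a peak and 832 or more in the 6 not given it, and E2 replicate 1 has a cross in all 5 panels.

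Further regions lay in the introns of Adamts2. Of 12 regions of its window in at least 6 libraries, 3 were stronger in libraries given E2 at a raw exact p under 0.05. The one at chr11:50738809-50740063 shifted by 2.51 (exact permutation p = 0.0433, adjusted p = 0.597). Its summit pile-up was 23 and 22 fragments in vehicle replicates 1 and 2, 72 and 63 in E2 replicates 2 and 3, 32, 54 and 43 under E2 plus fulvestrant, and 27 and 19 in fulvestrant replicates 1 and 3, with no peak in the other 3 libraries. The other two, at chr11:50645270-50647706 and chr11:50621743-50623635, shifted by 2.05 (exact permutation p = 0.0498) and 1.16 (exact permutation p = 0.0173). Without E2 replicate 1, 8 of the 12 passed, all stronger, and without both libraries 6 did. The promoter region of Adamts2 had a peak in all 12 libraries.

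**Figure D2:**
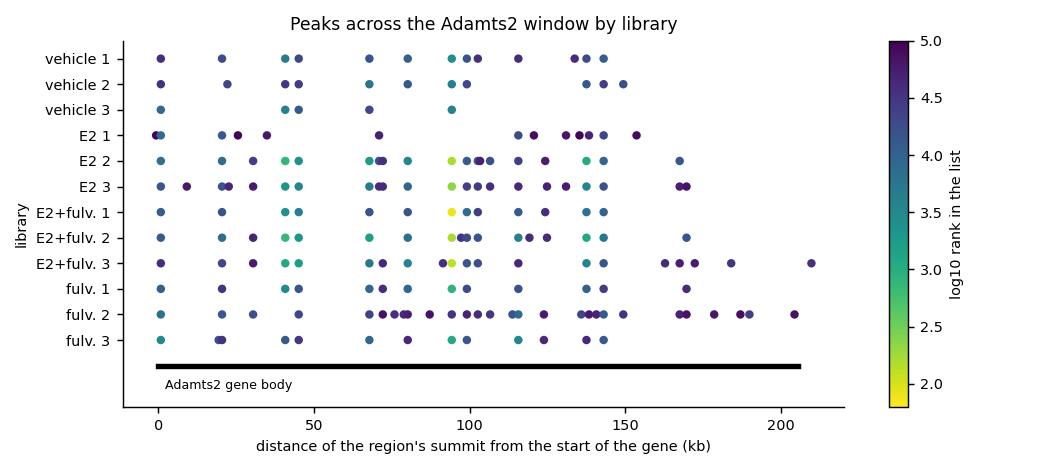
Regions with a peak in each library (rows) along the Adamts2 window, as distance of the region's strongest summit from the start of the gene in kb, coloured by log10 rank in that library's list. Light points, the strongest, stand 94211 bp from the start in the 5 libraries given E2 other than E2 replicate 1, which has no point there.

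In Adamtsl1, which encodes a secreted ADAMTS-like glycoprotein, the ERE region chr4:86217239-86218292 had a pile-up of 31, 32 and 44 fragments with vehicle and 103 and 88 in E2 replicates 2 and 3. It had 44, 67 and 88 under E2 plus fulvestrant, and 45 and 43 in fulvestrant replicates 1 and 3, while E2 replicate 1 and fulvestrant replicate 2 had no peak. The groups overlapped, since vehicle replicate 3 equalled the lowest E2 plus fulvestrant library. The shift of 1.48 did not pass over 12 libraries (exact permutation p = 0.377). Without E2 replicate 1 it was 2.68 (exact permutation p = 0.0152), and without both libraries 1.85 (exact permutation p = 0.0238).

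Adamts16 and Adamts12 encode secreted ADAMTS metalloproteases. The Adamts16 ERE region, chr13:70788777-70789988, had 58 and 56 fragments in E2 replicates 2 and 3 and 35, 38 and 38 with E2 plus fulvestrant. It had 17 and 22 in vehicle replicates 1 and 3, 23 and 20 in fulvestrant replicates 1 and 3, and no peak in the other 3 libraries. All libraries given E2 that had a peak were above all those not given it, and the shift of 1.99 passed at a raw level (exact permutation p = 0.0433, adjusted p = 0.597), as it did without E2 replicate 1 (2.74, exact permutation p = 0.00216). The Adamts12 ERE region, chr15:11210949-11211583, had 51 and 42 fragments in E2 replicates 2 and 3, 27, 36 and 28 with E2 plus fulvestrant, 23 in vehicle replicate 1, and 26 and 21 in fulvestrant replicates 1 and 3. Its shift of 1.25 missed the threshold (exact permutation p = 0.0758) and was 1.77 without E2 replicate 1 (exact permutation p = 0.00216).

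Timp2, an inhibitor that also takes part in the activation of pro-Mmp2 at the cell surface, had the only ERE without mismatch among these regions, and it was not stronger with E2. The region, chr11:118301717-118303417, had weak peaks in 7 libraries, 5 of them not given E2, with pile-ups of 13 to 19 fragments. It stood lower in libraries given E2 (shift of -1.07, exact permutation p = 0.0281, adjusted p = 0.578), and this did not pass without E2 replicate 1 (shift of -0.845, exact permutation p = 0.0563).

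The strongest member regions by median rank were mostly promoters, some of them of neighbouring genes. The best, chr2:26963536-26965309 in the 5′ flank of Adamts13 (which cleaves von Willebrand factor), had its summit 101 bp from the start of Rexo4. Next came the promoter of Mmp2 (gelatinase A), a region 198 bp from the start of Smarcb1 in the flank of Mmp11 (stromelysin 3), and the promoter of Mmp14, the membrane-type protease that activates pro-Mmp2. The Adamts2 and Adamtsl1 ERE regions were the only intronic ones among the first 12. A promoter peak, within 3 kb of a start site of the gene, was present in all 12 libraries for 13 members: Adamts1, Adamts2, Adamts4, Adamts5, Adamts10, Adamts12, Adamtsl4, Mmp2, Mmp11, Mmp14, Mmp23, Timp2 and Timp3.

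Across the 29321 regions found in at least 6 libraries, 2.38% were stronger and 5.91% weaker with E2 at a raw exact p under 0.05, and no adjusted p was below 0.444. The median shift over all these regions was -0.199. Of the 135 member regions, 4 were stronger, the 3 in Adamts2 and 1 in Adamts16, and 12 were weaker, shares of 2.96% and 8.89%. Ranks lengthen with the list, and by rank percentile the balance turned, to 9 stronger and 3 weaker member regions, beside 6.7% and 1.08% of all regions. The 4 stronger regions fell to 1 or 2 when any single library other than E2 replicate 1 was left out. None of the 4 stronger regions lay within 3 kb of a gene start and 8 of the 12 weaker ones did, while among all regions the shares near a start were 7.03% of the stronger and 62.7% of the weaker.

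The region beside Rexo4 moved most among the weaker ones, at ranks of 61, 122 and 85 with vehicle, 20635, 468 and 495 with E2, 517, 584 and 371 under E2 plus fulvestrant, and 117, 199 and 69 with fulvestrant. All libraries given E2 stood lower than all not given it (shift of -3.17, or -2.97 relative to the median of all regions, exact permutation p = 0.00216, adjusted p = 0.444), and the shift was -2.26 without E2 replicate 1. The pile-up itself was 125, 96 and 96 fragments with vehicle and 28, 126 and 137 with E2, so that in E2 replicates 2 and 3 it lay above every vehicle library. A lower rank is a lower place within the list, and in these E2 libraries it did not go with a smaller pile-up. Under E2 plus fulvestrant the pile-up was 80, 93 and 116 fragments. The Mmp2 promoter region, chr8:92825584-92829392, had a shift of -1.9 (exact permutation p = 0.0195, and 0.0635 without both libraries) beside pile-ups of 90, 65 and 53 fragments with vehicle, 98, 106 and 124 with E2, 75, 63 and 57 under E2 plus fulvestrant, and 102, 114 and 91 with fulvestrant. All 3 E2 libraries lay above vehicle in pile-up. Regions in the windows of Mmp11, Adamts5, Adamtsl4, Adamts7, Timp2, Mmp19 and Mmp23 made up the rest of the 12.

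Without E2 replicate 1, 23 of the 135 member regions were stronger (17%) and 9 weaker (6.67%), against 14% and 6.94% of all regions. The 23 lay in the windows of 11 members, none within 3 kb of a gene start, and 21 of them had no peak in E2 replicate 1. Adamts2 held 8 of them. Timp3, an inhibitor that binds to the matrix, held 2, as did Adamts12, Adamts16, Adamts17 and Adamtsl3. Without both libraries, 15 were stronger and 10 weaker, beside 11.6% and 6.56% of all regions.

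**Figure D3:**
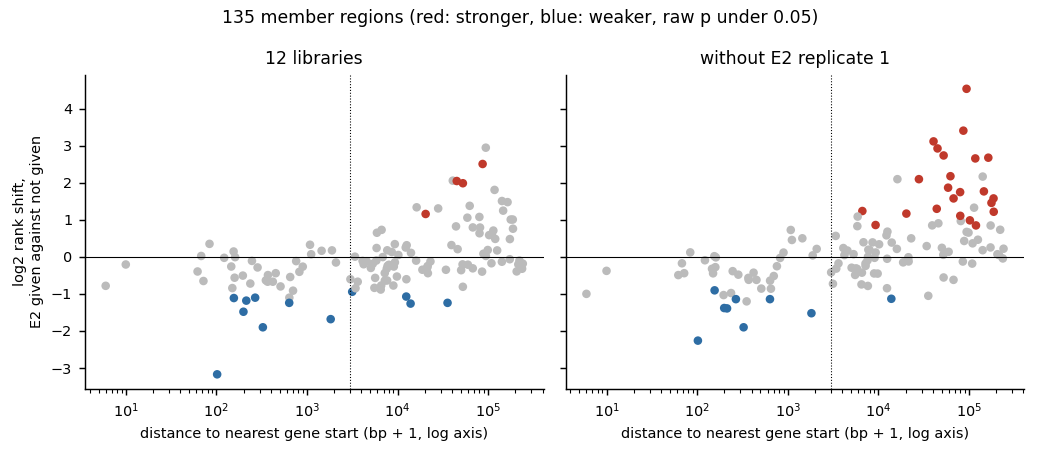
Log2 rank shift of the 135 member regions in libraries given E2 against those not given it (above 0, stronger), by distance of the summit from the nearest protein-coding gene start (log axis, dotted line at 3 kb), over 12 libraries and without E2 replicate 1. Red and blue mark raw exact p under 0.05: 4 stronger and 12 weaker regions on the left, 23 and 9 on the right, with all red points beyond 3 kb.

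The number of peaks per gene was compared next, to see which members gained or lost peaks with treatment. With 3 libraries against 3 the smallest two-sided exact permutation p is 0.1, so a gene was counted where the groups did not overlap, and no gene had an adjusted p below 0.05 in any comparison. E2 libraries lay above vehicle libraries for 6 members, Adamts3, Adamts8, Adamts9, Adamts12, Adamts16 and Adamts17, and below for none. This was 13% of the 46 members with a peak. Of all 19600 genes with a peak, 8.8% were higher and 0.474% lower. Scaled to 50000 peaks per list, 2 members were higher and 7 lower, beside 3.05% and 13.4% of all genes, so the direction of the count depends on the scaling. Without repeat-masked peaks 1 member was higher, beside 6.5% of all genes. It was 17 without E2 replicate 1, beside 15.7% of all genes, 16 without vehicle replicate 1, beside 18.1%, and 12 without E2 replicate 2, beside 16.6%.

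In the 6 libraries given E2 against the 6 not given it, 5 members had more peaks and 1 had fewer at a raw exact p under 0.05. These were 10.9% and 2.17% of the 46 members, beside 2.45% and 0.189% of all genes. The shares of all genes were not matched for gene length or number of peaks. The 5 with more peaks were Adamtsl1 (914 kb), Adamts12 (284 kb), Adamts9 (171 kb), Adamts16 (114 kb) and Mmp12 (25.1 kb). All adjusted p were 1.0. Scaled to list length the counts were 1 higher and 5 lower, beside 1.36% and 4.95% of all genes, and the 6 genes described next kept their direction, of which Mmp19 passed. The count of 5 was 9 without E2 replicate 1 or fulvestrant replicate 2, beside 3.59% and 5.63% of all genes. It was 3 without vehicle replicate 3 or fulvestrant replicate 3, beside 2.12% and 2.36%. It was 2 without vehicle replicate 2 (1.77% of all genes), E2 replicate 2 (2.34%) or 3 (2.09%), or E2 plus fulvestrant replicate 3 (2.13%).

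Adamts12, whose known substrates include cartilage oligomeric matrix protein, had 10, 2 and 9 peaks with vehicle, 11, 15 and 15 with E2, 15, 14 and 17 under E2 plus fulvestrant, and 10, 6 and 10 with fulvestrant. Every library given E2 exceeded every library not given it. The difference was 6.67 peaks (14.5 ± 1.97 against 7.83 ± 3.25, SD, n = 6, exact permutation p = 0.00216, the smallest possible), and it passed without any single library. It was 3.83 after scaling to list length (exact permutation p = 0.128). That scaling covers all 12 libraries, among them E2 replicate 1 with 11 peaks in a list of 104571, and was not rerun without it. On peaks whose −log10 q reached 10 the difference was 1.33 (exact permutation p = 0.182).

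Adamts16 had 4, 2 and 4 peaks with vehicle, 5, 7 and 9 with E2, 3, 7 and 6 under E2 plus fulvestrant, and 4, 1 and 2 with fulvestrant. The 2 sets overlapped at 1 library given E2 plus fulvestrant (difference of 3.33, exact permutation p = 0.0152). Without repeat-masked peaks it was 2.67 (exact permutation p = 0.0693). Adamts9, which cleaves versican, had 2, 1 and 4 peaks with vehicle, 5, 7 and 6 with E2, 1, 5 and 10 under E2 plus fulvestrant, and 0, 4 and 1 with fulvestrant. Its difference of 3.67 (exact permutation p = 0.0303) did not pass without vehicle replicate 2, E2 replicate 2 or 3, E2 plus fulvestrant replicate 3, or fulvestrant replicate 1 or 3 (exact p from 0.0519 to 0.0606). On peaks whose −log10 q reached 10, the Adamts9 difference was 0.167 and did not pass, nor did Mmp12 (0.333, exact permutation p = 0.455). Adamts16 (1.5) and Adamtsl1 (3.83) still passed on those peaks (exact permutation p = 0.0152 for each).

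Adamtsl1 is the longest member, at 914 kb, and held the most peaks. It had 29, 18 and 17 with vehicle, 29, 39 and 52 with E2, 21, 31 and 44 under E2 plus fulvestrant, and 31, 18 and 24 with fulvestrant. The difference of 13.2 peaks (exact permutation p = 0.0346) passed without E2 replicate 1 but not without both it and fulvestrant replicate 2 (exact p = 0.0714). Leaving out vehicle replicate 2 or 3, E2 replicate 2 or 3, E2 plus fulvestrant replicate 3 or fulvestrant replicate 2 also ended the call (exact p from 0.0519 to 0.0649).

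Among the MMPs, Mmp12 (macrophage elastase) had 1 or 2 peaks in each library not given E2 and 2, 4 and 3 with E2, and 1, 3 and 4 under both agents. The difference of 1.5 (exact permutation p = 0.0433) ended when any of 8 single libraries was left out: vehicle replicate 2 or 3, E2 replicate 2 or 3, E2 plus fulvestrant replicate 2 or 3, or fulvestrant replicate 1 or 3 (exact p from 0.0649 to 0.0779). Mmp19, which degrades basement membrane components, had fewer peaks with E2. It had 7, 9 and 5 with vehicle, 5, 5 and 4 with E2, 4, 6 and 5 under E2 plus fulvestrant, and 7, 9 and 6 with fulvestrant (difference of -2.33, exact permutation p = 0.0195). The sets met at 5 and 6 peaks, and counting only peaks whose −log10 q reached 10 turned the difference to 0.333. Without both libraries it was -2.0 (exact permutation p = 0.0556).

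**Figure D4:**
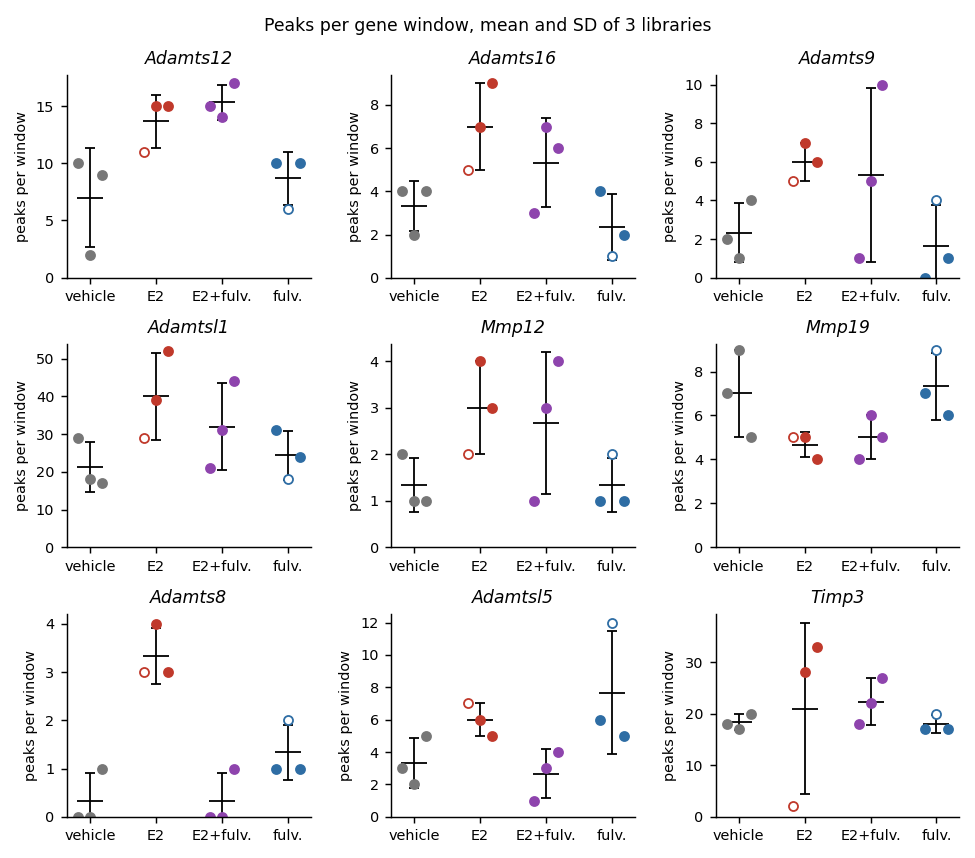
Peaks per gene window by treatment for 9 members, with the mean and SD of 3 libraries (axes start at 0, and open points are E2 replicate 1 and fulvestrant replicate 2). In Adamts12 the libraries given E2 had 11 to 17 peaks and the others 2 to 10, and in Timp3 E2 replicate 1 had 2 peaks while the other E2 libraries had 28 and 33.

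The question of which members lost peaks when the antagonist was added to E2 was answered by E2 against E2 plus fulvestrant. E2 libraries lay above for Adamts7, Adamts8 and Adamtsl5, 6.52% of members against 4.11% of all genes, and below for Adamts4 and Adamts15, 4.35% against 0.663%. Adamts8, a proteoglycanase, had 3, 4 and 3 peaks in the E2 libraries, 0, 0 and 1 under both agents, 0, 0 and 1 with vehicle, and 1, 2 and 1 with fulvestrant. Adamts15, an aggrecan- and versican-cleaving enzyme, had 1, 4 and 4 in the E2 libraries, 7, 5 and 6 under both agents, and 3, 3 and 1 with vehicle. Scaled to list length the balance turned, with 2 members higher, Adamts8 and Adamtsl5, and 8 lower, beside 2.29% and 7.84% of all genes. Without E2 replicate 1 or 2, 7 members were higher, beside 7.91% and 10.6% of all genes, and 6 without E2 plus fulvestrant replicate 3, beside 11.7%, with 2 lower in each. Taking the effect of fulvestrant with E2 against that without E2, Adamts8 and Adamtsl5 had a raw exact p under 0.05 and no member had one in the other direction, beside 3.16% and 0.301% of all genes.

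E2 plus fulvestrant against vehicle, which shares its vehicle libraries with the comparison of E2, had 6 members higher (13%, against 3.19% of all genes) and 1, Adamts7, lower (2.17%, against 0.444%). The 6 were Adamts2, Adamts12, Adamts15, Adamtsl4, Mmp8 and Mmp27, of which the last pair have overlapping windows and the same counts. Adamts2 had 17, 14 and 9 peaks with vehicle, 20, 24 and 28 with E2 plus fulvestrant, 15, 24 and 27 with E2, and 18, 35 and 15 with fulvestrant. The E2 and vehicle libraries overlapped at E2 replicate 1 and vehicle replicate 1, and separated without either. The count of 6 was 13 without vehicle replicate 1 (9.61% of all genes) and 15 without E2 plus fulvestrant replicate 1 (10.3%).

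Fulvestrant alone lay above vehicle for Mmp24, a membrane-type MMP, and Adamtsl4, 4.35% of members against 2.94% of all genes, and below it for none, against 0.393%. Mmp24 had 2, 2 and 3 peaks with vehicle and 5, 6 and 5 with fulvestrant, and Adamtsl4, a microfibril-associated protein, had 6 in each vehicle library and 8, 11 and 8 with fulvestrant. Scaled to list length, none was higher and 4 were lower (Mmp12, Mmp14, Adamts5 and Adamts10), beside 2.76% and 4.31% of all genes. Without fulvestrant replicate 2 there were 4 higher and 2 lower members, beside 4.04% and 1.9% of all genes. There were 5, 4 and 6 higher ones without vehicle replicate 1, vehicle replicate 3 and fulvestrant replicate 3, beside 9.56%, 4.46% and 7.1% of all genes.

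By role, the summed peaks of the 7 proteoglycanase genes were 22 ± 4.36 with vehicle, 38.0 ± 1.0 with E2, 33.0 ± 9.0 under both agents and 24.0 ± 4.58 under fulvestrant alone (SD, n = 3). The 3 procollagen N-proteinase genes had 14.7 ± 4.51, 31.0 ± 1.0, 28.3 ± 5.51 and 26.7 ± 16.8 in the same order. Scaled to 50000 peaks per list the proteoglycanase sums were 26.5 ± 2.64, 25.7 ± 7.1, 31.2 ± 1.64 and 22.3 ± 4.55. The N-proteinase sums were then 17.7 ± 4.71, 20.9 ± 5.3, 27.1 ± 1.26 and 22.4 ± 5.6. In both, E2 and vehicle differed by less than the SD. These scaled E2 sums include E2 replicate 1, whose list of 104571 peaks was the longest, and were not recomputed without it. Unscaled, the 2 gelatinase genes had 8.0 ± 4.0, 8.0 ± 0.0, 7.67 ± 2.89 and 11.7 ± 5.69. On unscaled counts, no Mmp or Timp gene separated E2 from vehicle. Of the 23 Adamts and Adamtsl genes 6 were higher, as were 8.8% of all genes. Scaled to list length, Mmp11, Mmp14 and Mmp19 were lower with E2, as were Adamts4, Adamtsl4, Adamts7 and Adamts10, while Adamts3 and Adamts8 were higher. At a −log10 q of at least 10, 9 members were higher, among them Mmp2, Mmp11 and Timp3, beside 15.6% of all genes. The difference between families was not tested.

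The TIMPs differed widely in level. Timp2 and Timp3 were among the densest windows, with 3.46 and 2.88 peaks per library and 10 kb, percentiles of 99.6 and 99.0 among genes with a peak. Timp2 had 29, 21 and 18 peaks with vehicle, 10, 30 and 33 with E2, 22, 26 and 40 under E2 plus fulvestrant, and 23, 29 and 29 with fulvestrant. Timp3 had 18, 17 and 20 with vehicle, 2, 28 and 33 with E2, 18, 22 and 27 under E2 plus fulvestrant, and 17, 20 and 17 with fulvestrant. In both, E2 replicate 1 was the lowest of all libraries and the other E2 libraries exceeded all vehicle libraries. Timp1 had 2 to 7 peaks in every library, and Timp4 had 2 in E2 replicate 1 and none elsewhere. Timp1, Timp3 and Timp4 overlap the synapsin genes Syn1, Syn3 and Syn2, and Timp2 overlaps Cep295nl, so their peaks cannot be assigned to one gene by position. In all, 14 of the 49 members overlap another protein-coding gene. Among them are Adamtsl1 (with Sh3gl2), Adamts9 (with A730049H05Rik and Gm15737), Mmp12 (with Mmp1b) and Mmp19 (with Tmem198b).

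**Figure D5:**
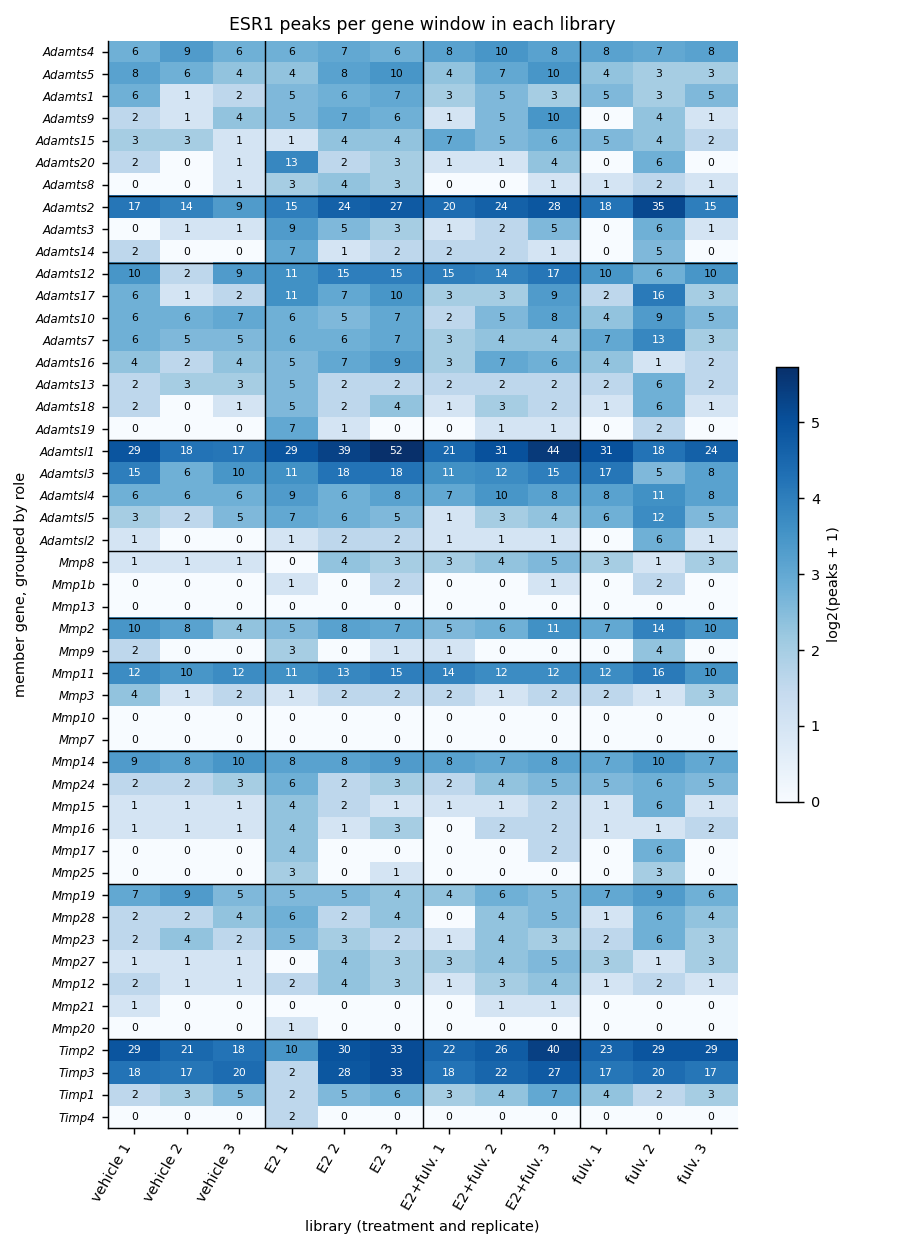
ESR1 peaks in the window of each of the 49 members (rows, grouped by role) in each library (columns), with the count printed and colour on a log2(peaks + 1) scale. Adamtsl1, Timp2, Adamts2 and Timp3 held the most peaks, Mmp7, Mmp10 and Mmp13 held none, and E2 replicate 1 had 2 peaks in Timp3 and 13 in Adamts20.

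Of 32 further genes of the pathway (ADAM sheddases, the plasminogen system, proprotein convertases, other inhibitors and protease substrates), 31 had a peak. E2 libraries lay above vehicle libraries for 4, Plaur, Plg, Pcsk5 and Bcan, and below for none, where 8.8% and 0.474% of all genes passed. Scaled to list length, 1 (Bcan) was higher and 2 (Adam9 and Bmp1) were lower, where 3.05% and 13.4% of all genes passed. With 6 against 6, Pcsk5, Plg and Reck had more peaks in libraries given E2 and none had fewer, where 2.45% and 0.189% of all genes passed. Pcsk5 and Plg also passed after scaling (exact permutation p = 0.00433 for each), where 1.36% of all genes were higher and 4.95% lower. Pcsk5, a proprotein convertase, had 3, 1 and 1 peaks with vehicle, 6, 9 and 7 with E2, 5, 9 and 13 under E2 plus fulvestrant, and 2, 3 and 2 with fulvestrant (difference of 6.17, exact permutation p = 0.00216, adjusted p = 1.0). The sets did not overlap. Reck, a membrane-anchored inhibitor of MMPs, had 0 to 2 in libraries not given E2 and 2 to 7 in those given it (exact permutation p = 0.0325).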

How the data were processed

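Per the labels and the study's methods, the authors used Trimmomatic (0.39) for trimming, Bowtie2 for alignment (mm10), Picard (2.21.4) for duplicate removal and MACS2 for peak calling in each library. Each deposited list gave positions, the summit, a fold ratio over local background, and −log10 p-values and −log10 q-values, computed by the authors. The deposited score, a multiple of the −log10 p-value, was not used. Replicates are not stated to be separate cultures or animals, so p-values measure the spread between libraries.

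Members, lists and named genes were chosen with earlier results of these data known. Summits were counted in gene bodies plus 10 kb (GENCODE vM21). Overlapping peaks were merged, and a region's strength was the log2 rank of its strongest peak by p, with list length plus 1 where absent. Shifts are means with E2 minus without, signed so that positive is nearer the top. Exact permutation tests (924 arrangements for 6 against 6) were adjusted by Benjamini-Hochberg over all genes or regions. They were also tested on simulated counts per gene, drawn without differences in list length or depth. That simulation cannot show how they behave on lists of unequal length. Pile-ups solved the caller's fold and Poisson p within 0.002 for 100% of the 2290 member peaks. Relative depth was the low end of the recovered background divided by the shortest peak length, and read totals were not analysed here. A peak was repeat-masked where soft-masked letters made up more than 50% of the window reaching 100 bp to either side of the summit. Intervals cover counting error only. Named were the TIMPs, members passing a comparison (at most 8 each), the 8 with most peaks, those with none, the 12 best-ranked regions, regions passing (at most 8 each way), and regions with an ERE in at least 6 libraries. Python 3, numpy, pandas and scipy were used.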

Additional observations from a re-analysis of the deposited data

Results flagged for a closer look

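Adamts8 and Adamtsl5 were the members with a raw exact p under 0.05 when the effect of fulvestrant on the number of peaks was compared with and without E2. For Adamts8, E2 libraries had 3.0 more peaks than E2 plus fulvestrant libraries and vehicle had 1.0 fewer than fulvestrant, a difference of differences of 4.0 peaks (exact permutation test, two-sided p = 0.013, adjusted p = 0.937). For Adamtsl5, a fibrillin-binding ADAMTS-like protein, it was 7.67 peaks (exact permutation p = 0.00649, adjusted p = 0.937), from 3, 2 and 5 with vehicle, 6, 12 and 5 with fulvestrant, 7, 6 and 5 with E2, and 1, 3 and 4 under both agents. Both passed without E2 replicate 1 and fulvestrant replicate 2 together, and neither passed on peaks whose −log10 q reached 10 (exact permutation p = 0.455 for Adamts8 and 0.727 for Adamtsl5). Adamtsl5 did not pass after scaling to list length (exact permutation p = 0.0693), nor Adamts8 with gene bodies plus 50 kb (exact permutation p = 0.249). Neither passed with the replicate number as a block. Of all genes with a peak, 3.16% had a raw p under 0.05 in this direction and 0.301% in the other, beside 4.35% and none of the members, and the smallest adjusted p over all genes was 0.937.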

How the results depend on the processing

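Of the counts and shares for whole comparisons, 60 alternative values stayed within 1.5 times the reported one (or within its interval) and 63 did not, and the cause was not tested. Percentages in brackets below are the shares of all genes, or of all regions, called the same way. For members higher with E2 than with vehicle, the 6 reported (8.8%) became 1 without repeat-masked peaks (6.5%) and 14 with gene bodies plus 50 kb (16.0%). They became 2 per 50000 peaks of the list (3.05%), 17 without E2 replicate 1 and fulvestrant replicate 2 (15.7%), and 6 to 17 with single libraries left out (10.2% to 18.1%). Against E2 plus fulvestrant, the 3 became 6 at a −log10 q of at least 10 (10.8%) and 1 without repeat-masked peaks (3.07%). They became 7 without both libraries (7.91%), and 3 to 7 with single libraries left out (5.2% to 11.7%). For fulvestrant against vehicle, the 2 became 7 at a q-value of at most 0.05 (3.43%), 0 with merged regions (2.09%) and 0 per 50000 peaks (2.76%, with 4 lower, 4.31%). They became 4 without both libraries (4.04%), and 2 to 6 with single libraries left out (3.97% to 9.56%). For E2 plus fulvestrant against vehicle, the 6 became 3 with 50 kb (4.13%), 2 with merged regions (2.33%), and 6 to 15 with single libraries left out (4.05% to 10.3%). For libraries given E2, the 5 became 3 without repeat-masked peaks (1.71%), 9 with 50 kb (3.42%) and 1 per 50000 peaks (1.36%). They became 10 without both libraries (4.61%), and 2 to 9 with single libraries left out (1.77% to 5.63%). For the difference of differences, the 2 became 1 at the stricter q (7.76%), with 50 kb (5.59%) and per 50000 peaks (1.64%). They became 2 to 4 with single libraries left out (2.23% to 7.25%). The 4 stronger regions became 0 at the stricter q (2.08%) and 9 by rank percentile (6.7%, with 3 weaker, 1.08%). They became 15 without both libraries (11.6%), and 1 to 23 with single libraries left out (1.26% to 14%). The share of member regions with an ERE was 0.401% with no mismatch and 3.88% at the stricter q, beside 0.177% and 3.34% of all regions.

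At the stricter q, Adamts4 and Adamts15 turned to 1.0 and 0.667 peaks in E2 against E2 plus fulvestrant, Adamtsl4 to -0.667 in E2 plus fulvestrant against vehicle, and Mmp19 to 0.333. With 50 kb, Adamts15 turned to 1.0 and Adamts7 to 0.667 in the same comparisons. Of the other values for single genes and regions, 186 no longer passed, 8 newly passed and 647 kept direction and side.

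Libraries sharing a replicate number did not deviate together (mean r of -0.00764 over 18 pairs, from -0.461 to 0.341), and 6 of 12 libraries correlated best with their own number. With the replicate number as a block, the counts above were 9, 6, 4, 9, 2 and 0 members and 1 region in the same order. The shares of all genes were then 16.7%, 9.31%, 6.04%, 6.08%, 0.617% and 0.781%, and that of all regions 0.61%. A block of 6 pairs cannot give an exact p below 0.03125. The list lengths and the depth of E2 replicate 1 limit every count of peaks, and the number of libraries limits the precision: no adjusted p was below 0.05.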
